A study of Mus musculus with 16 samples.

Results

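The 7 microRNAs (miRNAs) described here are mmu-miR-103, mmu-miR-107, mmu-miR-26a, mmu-miR-26b, mmu-miR-148a, mmu-miR-22 and mmu-miR-378 (the prefix is left out where no value per array is given), which are bright in liver and have described roles in insulin signalling, in lipid and mitochondrial metabolism or in restraint of growth. They were taken by name from a deposited table of 650 array features, of which 611 are mouse miRNAs, and all 7 were found. The values are log2 expression values of total RNA from whole liver of male C3H mice, 4 arrays in each of 4 groups: CTNNB1KO with phenobarbital, CTNNB1KO controls, WT with phenobarbital and WT controls. In CTNNB1KO mice, exons of Ctnnb1 flanked by loxP sites are removed by Cre driven by the albumin promoter, so beta-catenin is lost in hepatocytes. Loss of the gene in other cells of the liver was not examined. Phenobarbital was given at 0.05% in the diet for 12 weeks, and the sources name the control both as a diet without phenobarbital and as water. The labels do not say whether the 4 arrays of a group came from different mice. The tests therefore speak only of the spread among these arrays, part of which may be technical.

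A miRNA guides the Argonaute complex to mRNAs that pair with its seed, bases 2 to 8 from the 5′ end, and lowers their translation and stability, so miRNAs with the same seed share many predicted targets. In mice, miR-103 and miR-107 lower insulin sensitivity of liver and fat. miR-26a slows the cell cycle by repressing cyclins and restrains liver tumours in mice, miR-148a represses the hepatic LDL receptor and the DNA methyltransferase Dnmt1, and miR-378 arises from the gene of the mitochondrial co-activator PGC-1beta. miR-22 is an abundant miRNA of liver and heart. Phenobarbital activates the nuclear receptor CAR and promotes liver tumours in mice, and beta-catenin maintains the perivenous gene programme of hepatocytes.

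RefSeq held the mature sequence of 6 of the 7 members in GRCm38.p6. They are shown because the seeds define which members are relatives and because members that share a seed differ only outside it. Capitals mark the seed, and the relatives miR-148b, miR-152 and miR-16 are added.
mmu-miR-103: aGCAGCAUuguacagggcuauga
mmu-miR-107: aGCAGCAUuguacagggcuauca
mmu-miR-26a: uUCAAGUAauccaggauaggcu
mmu-miR-26b: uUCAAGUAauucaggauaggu
mmu-miR-148a: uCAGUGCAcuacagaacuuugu
mmu-miR-148b: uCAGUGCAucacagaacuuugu
mmu-miR-152: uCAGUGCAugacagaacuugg
mmu-miR-22: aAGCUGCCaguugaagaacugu
mmu-miR-16: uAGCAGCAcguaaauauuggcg

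Counting positions from 1 at the 5′ end, miR-103 and miR-107 were identical at 22 of 23 positions and differed by G22C, with the base of miR-103 first. miR-26a and miR-26b differed by C11U and C21U over the 21 positions compared, with the base of miR-26a first. miR-148a differed from miR-148b by C9U and U10C, and from miR-152 by C9U, U10G and U20G, with the base of miR-148a first. Among 1679 mature mouse miRNA names in the RefSeq table, the seed of miR-103 and miR-107 was held by these 2 names, that of miR-26a and miR-26b by these 2, that of miR-148a by 3 and that of miR-22 by itself. Bases 1 to 7 of miR-103 and miR-107 are the same letters as the seed of miR-16, moved by 1 position. How far the array separates miR-103 from miR-107, or miR-26a from miR-26b, was not tested, and the values of each pair may not be independent.

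In GRCm38.p6 the miR-103 sequence lies at chr11:35782447-35782469 (+) within Pank3 and at chr2:131288103-131288125 (+) within Pank2, and miR-107 at chr19:34820700-34820722 (-) within Pank1, all 3 being genes of pantothenate kinases, which start the synthesis of coenzyme A. miR-26a lies at chr9:119031811-119031832 (+) within Ctdspl and at chr10:126995543-126995564 (+) within Ctdsp2, and miR-26b at chr1:74394324-74394344 (+) within Ctdsp1, genes of small phosphatases of the RNA polymerase II tail. miR-148a lies at chr6:51269829-51269850 (-) within the predicted gene Gm38821, and miR-22 at chr11:75463772-75463793 (+) within the long noncoding RNA gene Mir22hg. miR-378 lies within Ppargc1b, which encodes PGC-1beta. The mature product of miR-103 and of miR-26a is the same from both of its loci, and the array cannot tell the loci apart.

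Every member lay above the dim floor of 3.98 on all 16 arrays. By mean value the members ranked between 4 (miR-22) and 64 (miR-378) among the 611 mouse miRNAs. miR-378, the dimmest, had a mean of 5.67, only 1.69 above the floor. The floor is the 0.95 quantile of the mean values of the 39 viral miRNA features of the array. On CTNNB1KO phenobarbital replicate 4 only 100 mouse miRNAs lay above it, against 114 to 133 on the other arrays. Without that array the genotype difference under phenobarbital was -0.40 for miR-103, -0.47 for miR-107 and 0.21 for miR-26a. It was 0.26 for miR-26b and for miR-148a, 0.02 for miR-22 and -0.06 for miR-378. Arrays of one group correlated between 0.966 and 0.996 over the mouse miRNAs, and the hepatocyte miRNAs miR-122, miR-192 and miR-194 were bright on every array. Their per-array mean was 11.81 to 12.06 in CTNNB1KO with phenobarbital, 11.71 to 12.06 in CTNNB1KO controls, 12.02 to 12.15 in WT with phenobarbital and 12.05 to 12.14 in WT controls. Averaged over treatments all 3 hepatocyte miRNAs were lower in CTNNB1KO, by -0.24 to -0.05 with a median of -0.11, and 0 of them passed. Because Ctnnb1 mRNA is not on a miRNA array, loss of the gene could not be examined. The mean of 7 striated muscle miRNAs was 5.14 and 4.37 on CTNNB1KO phenobarbital replicates 1 and 2, against 3.19 to 3.43 in the other 3 groups. Without both arrays the genotype difference under phenobarbital was -0.54 for miR-103 (limma adjusted p = 0.0932), -0.50 for miR-107 (adjusted p = 0.143), 0.14 for miR-148a and -0.15 for miR-22 and for miR-378, and for miR-26a and miR-26b it is given with their values.

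**Figure D1:**
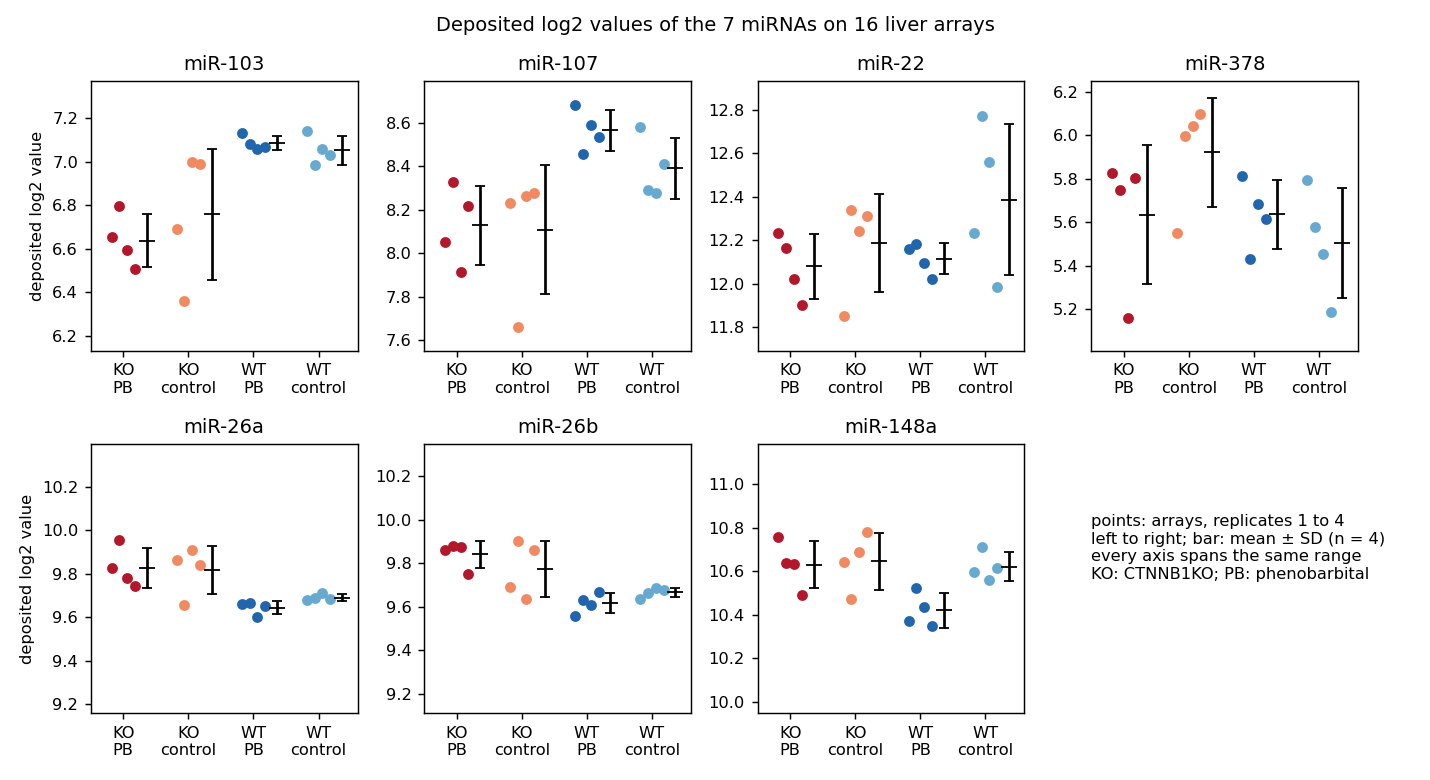
Deposited log2 values of the 7 miRNAs, by group, with each array as a point and the mean ± SD of 4 arrays as a bar; every vertical axis spans the same range of log2 units. The miR-103 and miR-107 points of CTNNB1KO livers with phenobarbital lie below all WT phenobarbital points, and those of miR-26a and miR-26b lie above them.

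The comparison of genotypes asked which of these miRNAs differ in whole liver between CTNNB1KO and WT. Over both treatments together, miR-103 fell in CTNNB1KO livers by 0.37 ± 0.10 on the log2 scale (SE; limma adjusted p = 0.0422), a fold of 0.773 with a 95% interval of 0.665 to 0.899. It was the only member to pass in that comparison, 1 of 7, where 5.56% of all 611 mouse miRNAs passed in either direction and 4.09% were lower. miR-107 differed by almost the same amount, -0.36 ± 0.11 (adjusted p = 0.0556), and did not pass. In whole liver, fewer cells of a type and less RNA per cell cannot be told apart.

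mmu-miR-103 read 6.65, 6.80, 6.59 and 6.51 on the 4 arrays of CTNNB1KO with phenobarbital (replicates 1 to 4) and 6.69, 6.36, 7.0 and 6.99 in CTNNB1KO controls. It read 7.13, 7.08, 7.06 and 7.07 in WT with phenobarbital and 7.14, 6.99, 7.06 and 7.03 in WT controls. The 8 WT arrays thus lay between 6.99 and 7.14, whereas the 8 CTNNB1KO arrays spread from 6.36 to 7.0. The highest CTNNB1KO control overlapped the lowest WT control, and the phenobarbital groups did not overlap. The means were 6.64 ± 0.12 in CTNNB1KO with phenobarbital, 6.76 ± 0.30 in CTNNB1KO controls, 7.09 ± 0.03 in WT with phenobarbital and 7.05 ± 0.07 in WT controls (SD, n = 4 each). Both CTNNB1KO means were under both WT means, with neighbours of the same genotype closer to each other than the wider of their SDs.

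Under phenobarbital, miR-103 was 6.64 in CTNNB1KO against 7.09 in WT, a difference of -0.45 ± 0.15 (limma adjusted p = 0.0992) that did not pass although every CTNNB1KO array lay below every WT array. Of all mouse miRNAs, 7.04% lay apart in that direction. In controls the difference was -0.29 ± 0.15 (adjusted p = 0.624), and it was -0.16 without CTNNB1KO control replicate 2, the array with the lowest miR-103 and the lowest miR-107. The change in the genotype difference with phenobarbital, the interaction, was -0.15 with a 95% interval of -0.59 to 0.28, so whether the genotype difference depends on phenobarbital was not resolved. The averaged call is near the threshold: it was lost when any of 12 of the 16 arrays was left out singly (adjusted p up to 0.0903), after quantile normalization (0.0914) and with the replicate number as a block (0.0867). It held without CTNNB1KO control replicate 2, at -0.30 (adjusted p = 0.041), and without the pair of muscle-bearing arrays, at -0.41 (adjusted p = 0.0323).

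mmu-miR-107 read 8.05, 8.33, 7.91 and 8.21 in CTNNB1KO with phenobarbital and 8.23, 7.66, 8.26 and 8.28 in CTNNB1KO controls. It read 8.68, 8.45, 8.59 and 8.54 in WT with phenobarbital and 8.58, 8.29, 8.28 and 8.41 in WT controls. The pattern followed that of miR-103, with the phenobarbital groups apart and a small overlap between the control groups. The means were 8.13 ± 0.18 in CTNNB1KO with phenobarbital, 8.11 ± 0.30 in CTNNB1KO controls, 8.56 ± 0.09 in WT with phenobarbital and 8.39 ± 0.14 in WT controls. The genotype difference was -0.44 ± 0.15 under phenobarbital (limma adjusted p = 0.129) and -0.28 ± 0.15 in controls (adjusted p = 0.624). Without CTNNB1KO control replicate 2 the difference in controls was -0.13. All groups share 1 estimate of the spread, and without that array the SE for both miRNAs was 0.11 under phenobarbital and 0.12 in controls. When it was left out, the difference under phenobarbital, unaltered at -0.44 for miR-107 and -0.45 for miR-103, passed for both (adjusted p = 0.0279 and 0.0229; across other settings 0.0332 to 0.377 and 0.0218 to 0.247).

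**Figure D2:**
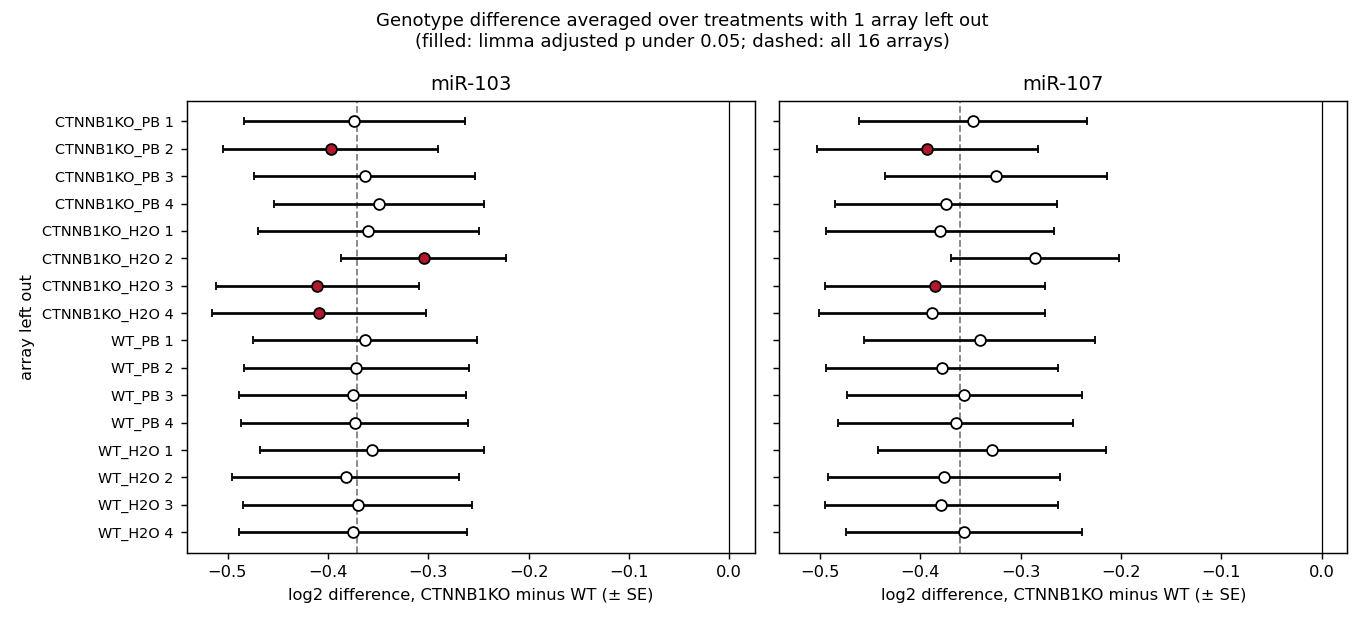
Genotype difference of miR-103 and miR-107 averaged over treatments (log2, CTNNB1KO minus WT, ± SE) with each of the 16 arrays left out in turn, on a shared horizontal axis; filled points passed the limma test, and PB and H2O mark the phenobarbital and control groups. All 16 estimates are below 0 for both miRNAs, from -0.41 to -0.30 for miR-103 and from -0.39 to -0.29 for miR-107, and 4 and 2 of them passed.

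miR-26a and miR-26b, the growth-restraining pair, differed the other way between genotypes, by small amounts that did not pass. mmu-miR-26a read 9.83, 9.95, 9.78 and 9.74 in CTNNB1KO with phenobarbital and 9.86, 9.66, 9.91 and 9.84 in CTNNB1KO controls, against 9.66, 9.66, 9.60 and 9.65 in WT with phenobarbital and 9.68, 9.69, 9.71 and 9.68 in WT controls. Of the CTNNB1KO arrays, control replicate 2 alone lay among the WT arrays. In WT every phenobarbital array lay below every control, by 0.05 ± 0.09 in the mean (adjusted p = 0.999), as did 3.27% of all mouse miRNAs. Averaged over treatments the difference was 0.15 ± 0.07 (limma adjusted p = 0.282), with a 95% interval of the fold from 1.01 to 1.23. After quantile normalization it was 0.06 (adjusted p = 0.825). Of 25 alternative settings of the fit, it passed in 2 (lowest adjusted p = 0.0265).

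mmu-miR-26b read 9.86, 9.88, 9.88 and 9.75 in CTNNB1KO with phenobarbital and 9.69, 9.90, 9.64 and 9.86 in CTNNB1KO controls, against 9.56, 9.63, 9.61 and 9.67 in WT with phenobarbital and 9.64, 9.67, 9.69 and 9.68 in WT controls. Its averaged difference was 0.17 ± 0.07 (limma adjusted p = 0.226), a fold between 1.02 and 1.24 at 95%. It passed in 3 of 25 alternative settings (lowest adjusted p = 0.0201). Under phenobarbital both lay apart, every CTNNB1KO array above every WT array, as did 4.42% of all mouse miRNAs, by 0.18 ± 0.09 for miR-26a (adjusted p = 0.441) and 0.23 ± 0.10 for miR-26b (adjusted p = 0.276). Without the muscle-bearing arrays these were 0.12 and 0.20. Of 26 alternative settings, the difference under phenobarbital passed in 2 for miR-26b (lowest adjusted p = 0.0342) and in 0 for miR-26a. In controls the groups of all 7 members overlapped, where 2.29% of all mouse miRNAs lay apart as higher and 3.44% as lower, and the differences were 0.13 ± 0.09 for miR-26a and 0.11 ± 0.10 for miR-26b. Without CTNNB1KO control replicate 2 they were 0.18 and 0.06. Under phenobarbital 0 of the 7 members passed in limma, beside 3.76% of all mouse miRNAs, while 4 had an unadjusted p under 0.05, as did 13.9% of all. In controls 0 of 7 passed, beside 0.818%, and 1 had an unadjusted p under 0.05, as did 8.02% of all.

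**Figure D3:**
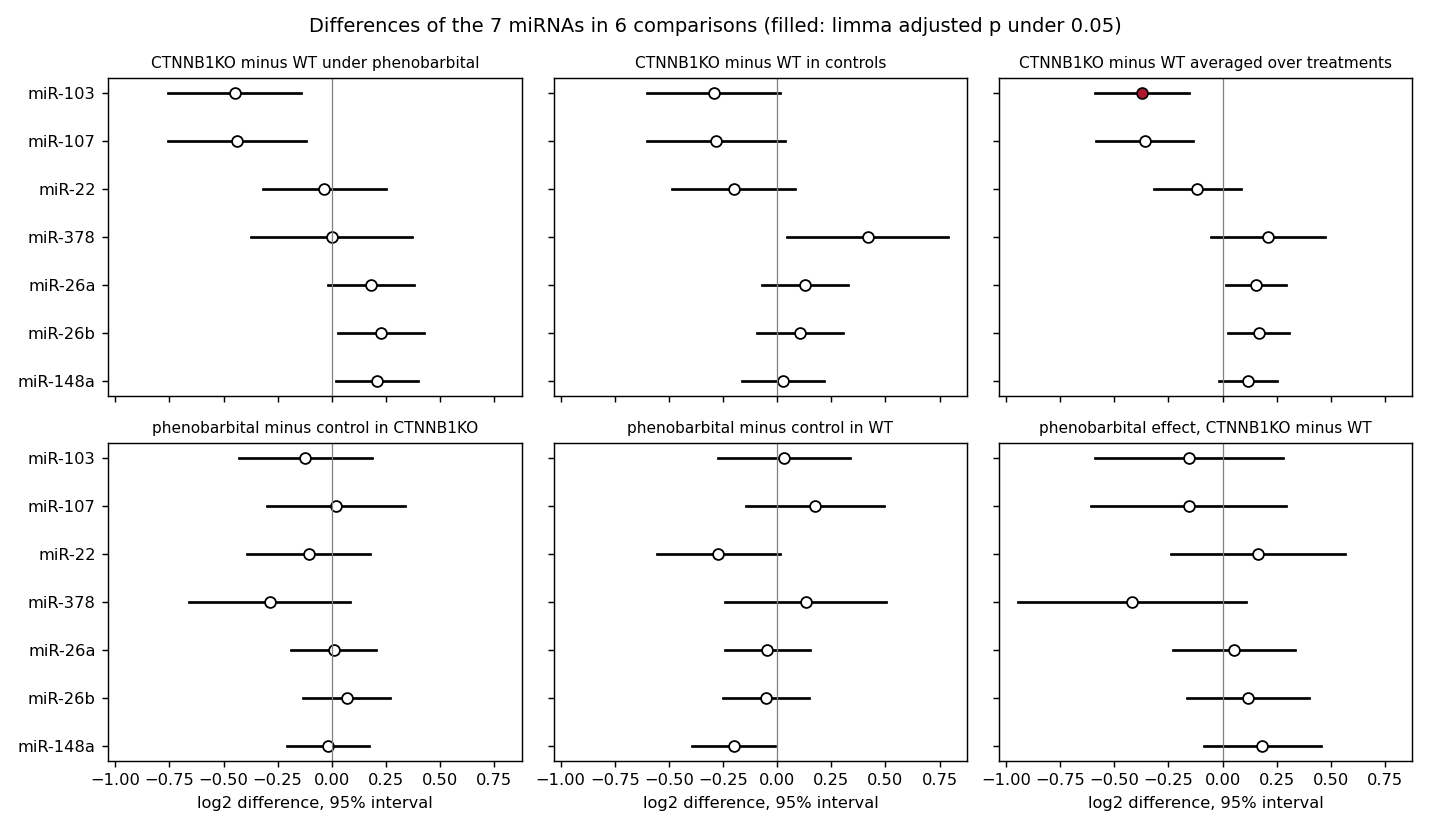
Log2 differences of the 7 miRNAs with 95% intervals in 6 comparisons; the filled point passed the limma test over all mouse miRNAs. miR-103 and miR-107 lie left of 0 and miR-26a and miR-26b right of 0 in all 3 genotype comparisons, and miR-103 passed in the averaged one.

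mmu-miR-148a, the regulator of the LDL receptor, showed its lowest values in WT livers with phenobarbital. It read 10.76, 10.64, 10.63 and 10.49 in CTNNB1KO with phenobarbital, 10.64, 10.47, 10.69 and 10.78 in CTNNB1KO controls, 10.37, 10.52, 10.44 and 10.35 in WT with phenobarbital and 10.60, 10.71, 10.56 and 10.61 in WT controls. In WT every phenobarbital array lay below every control, as did 3.27% of all mouse miRNAs, but the difference of -0.20 ± 0.09 did not pass (limma adjusted p = 0.613). Its means were 10.63 ± 0.11 in CTNNB1KO with phenobarbital, 10.65 ± 0.13 in CTNNB1KO controls, 10.42 ± 0.08 in WT with phenobarbital and 10.62 ± 0.07 in WT controls. Of these, 3 were closer to each other than their SDs and that of WT with phenobarbital was lower. In CTNNB1KO, phenobarbital made a difference of -0.02 ± 0.09. The interaction was 0.18, with a 95% interval of -0.08 to 0.45 (adjusted p = 0.817), and its sign turned, to -0.11, after quantile normalization. With that scaling the phenobarbital difference was -0.20 in CTNNB1KO and -0.09 in WT, and the genotype difference in controls was 0.27, beside 0.03 before it. Under phenobarbital the genotype difference was 0.21 ± 0.09 (adjusted p = 0.279), which shares the WT phenobarbital arrays with the comparison in WT.

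mmu-miR-22, encoded in Mir22hg, varied most within the WT controls. It read 12.23, 12.16, 12.02 and 11.90 in CTNNB1KO with phenobarbital, 11.85, 12.34, 12.24 and 12.31 in CTNNB1KO controls, 12.16, 12.18, 12.10 and 12.02 in WT with phenobarbital and 12.23, 12.77, 12.56 and 11.99 in WT controls. WT control replicates 2 and 3 stood above all other arrays, while replicate 4 was among the low ones, and the groups overlapped in every comparison. The phenobarbital difference was -0.27 ± 0.14 in WT (limma adjusted p = 0.715) and -0.11 ± 0.14 in CTNNB1KO (adjusted p = 0.989). The value depended on the scaling between arrays, on their weights and on single arrays. The WT difference was 0.18 after quantile normalization (adjusted p = 0.965), and -0.41 with array weights, where it passed (adjusted p = 0.0186; 0.123 to 0.992 in the remaining settings). It was -0.41 without WT control replicate 4 and -0.14 without WT control replicate 2. No direction is therefore given for miR-22. The genotype difference averaged over treatments was -0.12 ± 0.10 (adjusted p = 0.753), and -0.18 and -0.05 without the same arrays.

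mmu-miR-378, from the PGC-1beta gene, had the widest intervals of the 7. It read 5.83, 5.75, 5.16 and 5.80 in CTNNB1KO with phenobarbital, 5.55, 5.99, 6.04 and 6.10 in CTNNB1KO controls, 5.81, 5.43, 5.68 and 5.62 in WT with phenobarbital and 5.80, 5.58, 5.45 and 5.19 in WT controls. Of the CTNNB1KO controls 3 lay above every other array of the study, and the remaining one, replicate 1, lay among the WT values. The genotype difference in controls was 0.42 ± 0.18 (limma adjusted p = 0.557), with a 95% interval of 0.05 to 0.79. Under phenobarbital it was 0.00 ± 0.18, and the interaction was -0.42 with an interval of -0.94 to 0.11 (adjusted p = 0.74). miR-378 is abundant in muscle, and the muscle-bearing CTNNB1KO phenobarbital arrays read 5.83 and 5.75. Without them the phenobarbital difference in CTNNB1KO was -0.44 (adjusted p = 0.614), beside -0.29 ± 0.18 with all arrays (adjusted p = 0.989), and the interaction was -0.57 (adjusted p = 0.522). The part of muscle RNA was not tested further. The value in CTNNB1KO also moved with single arrays: it was -0.13 without phenobarbital replicate 3 (adjusted p = 0.996), the array at 5.16, and -0.41 without control replicate 1. Without phenobarbital replicate 3 the interaction was -0.26 and the genotype difference under phenobarbital 0.16.

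Phenobarbital itself left no member past the test. In CTNNB1KO 0 of 7 passed in limma and 0 had an unadjusted p under 0.05, beside 0% of all mouse miRNAs called and 5.24% with an unadjusted p under 0.05. In WT 0 of 7 passed, beside 2.78% called, and 1, miR-148a, had an unadjusted p under 0.05, as did 7.53% of all. Array weights passed 1 member in WT, miR-22. Averaged over genotypes 0 of 7 passed, beside 1.8%, and 0 had an unadjusted p under 0.05, against 6.55% of all. The 7 averaged differences ran from -0.19 for miR-22 to 0.10 for miR-107, with a median of -0.05 beside 0.00 over all mouse miRNAs. For miR-26a and miR-26b the 95% interval of the averaged fold lay between 0.896 and 1.09 and between 0.913 and 1.11. For miR-103 it lay between 0.834 and 1.13, and for miR-107 between 0.915 and 1.25. In the interaction 0 of 7 passed and 0 had an unadjusted p under 0.05, beside 1.15% called, all of them lower, and 8.35% with an unadjusted p under 0.05.

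**Figure D4:**
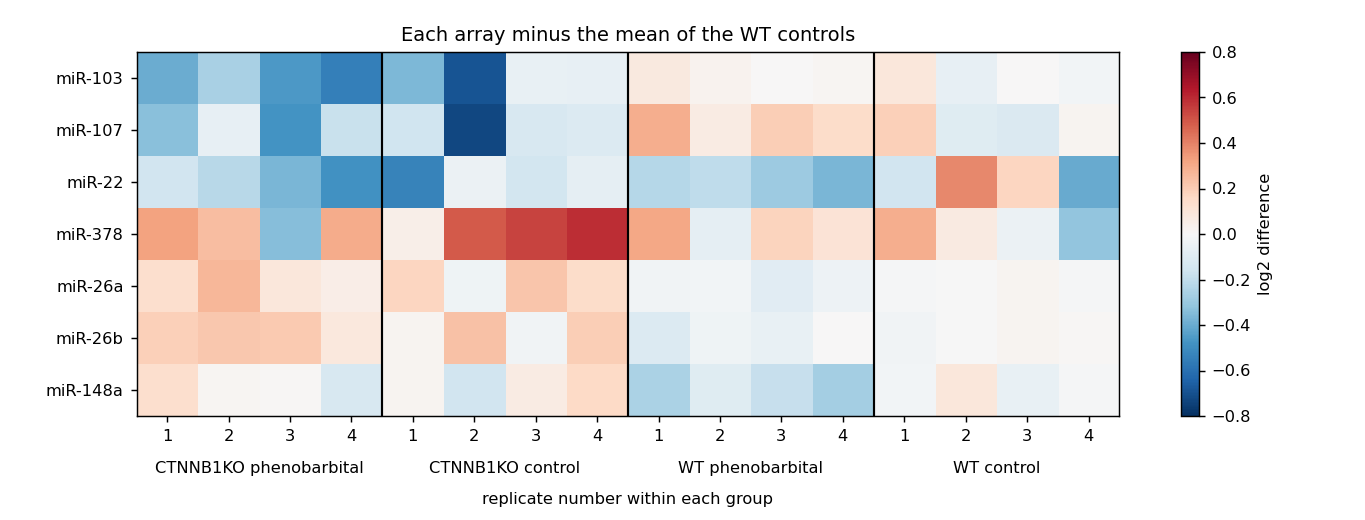
Each array's log2 value minus the mean of the 4 WT controls, for the 7 miRNAs (rows) and 16 arrays (columns, by group and replicate number). CTNNB1KO control replicate 2 holds the lowest miR-103 and miR-107 of the study, and the WT cells of miR-26a and miR-26b are pale.

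Beyond the group means, CTNNB1KO livers varied more from array to array. The SD within groups was larger in CTNNB1KO than in WT for 6 of the 7 members, with miR-22 the exception. It was 0.23 in CTNNB1KO against 0.05 in WT for miR-103, 0.10 in CTNNB1KO against 0.02 in WT for miR-26a and 0.10 in CTNNB1KO against 0.04 in WT for miR-26b. The median ratio of CTNNB1KO over WT was 2.05 for the members and 2.02 for the 141 mouse miRNAs above the floor, of which 112 had the larger SD in CTNNB1KO, so the members were near the background in this. Without CTNNB1KO control replicate 2, which was left out once its values had been seen, the median ratio was 1.47 for the members and 1.78 for all above the floor. The ratio was then 1.17 for miR-107 and 2.80 for miR-103. The limma test pools the spread over the 4 groups, so its standard errors are the same in both genotypes.

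Within groups, no pair of members passed a test of varying together. Deviations of miR-103 and miR-107 from their group means had a Pearson r of 0.78 over the 16 arrays (permutation p = 0.0148; 0.155 adjusted over 21 pairs) and a Spearman rho of 0.60 (permutation p = 0.0385; adjusted 0.404). Without the pair of arrays farthest from the median, CTNNB1KO control replicates 2 and 3, r was 0.46. miR-103 and miR-26a had an r of 0.83 (permutation p = 0.0114; adjusted 0.155) and a rho of 0.66 (permutation p = 0.0151; adjusted 0.316), with an r of 0.56 when the same pair of arrays was left out. For miR-26a and miR-26b r was -0.35 (permutation p = 0.497; adjusted 0.746) and rho -0.06 (permutation p = 0.869; adjusted 0.989). None of the 21 pairs passed after adjustment by either measure.

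Over all 16 arrays, groups included, the miRNAs with the profile most like each member were looked up among 109 above the floor in every group, as a description only. For miR-103 they were miR-365 (r = 0.91), miR-101b (0.90) and miR-194 (0.89), and for miR-107 miR-103 (0.87), miR-194 (0.84) and miR-30e (0.83). miR-26a was closest to miR-31 (0.88), miR-31* (0.75) and miR-148a (0.67), and miR-26b to miR-34a (0.83), miR-199b* (0.72) and miR-31* (0.71). miR-148a was closest to miR-26a (0.67), miR-139-5p (0.64) and miR-31 (0.54). miR-22 was closest to miR-192 (0.75), let-7f (0.72) and miR-193 (0.66), and miR-378 to miR-28 (0.58), miR-709 (0.56) and miR-31* (0.51). These r include the differences between groups.

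The 12 seed relatives and opposite arms were all measured, 10 of them with a mean above the floor. miR-148b and miR-152, which carry the seed of miR-148a, differed between genotypes by 0.09 ± 0.09 and -0.12 ± 0.11 averaged over treatments (limma adjusted p = 0.835 and 0.811). miR-16 was 8.49 ± 0.07 in CTNNB1KO with phenobarbital, 8.07 ± 0.29 in CTNNB1KO controls, 8.54 ± 0.09 in WT with phenobarbital and 8.63 ± 0.12 in WT controls. Its difference of -0.55 ± 0.14 between genotypes in controls came close to the threshold (adjusted p = 0.0899), and its lowest value, 7.66, was again that of CTNNB1KO control replicate 2. Of the relatives, miR-497, which holds the miR-16 seed, rose in CTNNB1KO averaged over treatments, by 0.37 ± 0.10 (adjusted p = 0.0396), and 11 did not pass. In that comparison 5.56% of all mouse miRNAs passed.

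The opposite arm mmu-miR-22* differed by -0.46 ± 0.15 between genotypes averaged over treatments (limma adjusted p = 0.0765), beside -0.12 for miR-22. It read 6.02, 6.18, 5.71 and 5.04 in CTNNB1KO with phenobarbital, 5.40, 5.0, 5.77 and 5.63 in CTNNB1KO controls, 6.19, 6.19, 6.21 and 6.24 in WT with phenobarbital and 5.96, 5.82, 6.00 and 5.77 in WT controls. All WT phenobarbital arrays thus lay above all CTNNB1KO phenobarbital arrays, but only just, at 6.19 for the lowest WT array against 6.18 for CTNNB1KO replicate 2. Of all mouse miRNAs, 7.04% lay apart in that direction. In WT, miR-22* averaged 6.21 with phenobarbital and 5.89 in controls, a difference of 0.32 that did not pass. The difference of miR-22 there was -0.27, with a sign that turned after quantile normalization. Both arms come from 1 precursor. miR-378* lay close to the floor, between 3.75 and 4.41, and differed by 0.17 ± 0.10 (adjusted p = 0.451). The opposite arms of miR-26b and miR-148a stayed under the floor in every group.

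Of 20 other miRNAs with roles in metabolism, 3 rose and 2 fell in CTNNB1KO averaged over treatments, with a median difference of -0.01 beside 0.02 over all mouse miRNAs. Of all mouse miRNAs, 5.56% passed in that comparison. This list and the next were chosen with earlier results of these data known, so the counts are not a test of the lists. miR-34a, a target of p53, rose by 2.92 ± 0.34 (limma adjusted p = 2.48e-05), the leukocyte miRNA miR-223 rose by 1.10 ± 0.31, and miR-335-5p, under the floor in every group, rose by 0.27 ± 0.08. The erythroid miRNA miR-144 fell by 1.59 ± 0.23 and miR-27b, a regulator of lipid metabolism genes, by 0.55 ± 0.14 (adjusted p = 0.0252). With phenobarbital in WT 1 of the 20 rose, miR-802, by 1.38 ± 0.23, beside 2.78% of all mouse miRNAs passing in either direction. Of 24 other miRNAs with growth-restraining roles, miR-497 and miR-214 rose in CTNNB1KO averaged over treatments and miR-101b fell by 0.49 ± 0.12 (adjusted p = 0.0176). The other 21 did not pass, with a median of 0.04 over the list, beside the same 5.56% of all mouse miRNAs passing.

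Markers of other cells differed along with genotype. The mean of the 3 erythroid miRNAs was 6.30 to 7.46 per array in CTNNB1KO with phenobarbital, 6.28 to 6.79 in CTNNB1KO controls, 7.46 to 7.98 in WT with phenobarbital and 7.54 to 8.46 in WT controls. That of the 8 leukocyte miRNAs, 4 of them above the floor in their mean over all arrays, was 4.65 to 5.63 in CTNNB1KO with phenobarbital, 4.53 to 5.48 in CTNNB1KO controls, 4.30 to 4.54 in WT with phenobarbital and 4.38 to 4.59 in WT controls. For 7 biliary or epithelial miRNAs, 3 above the floor, it was 4.16 to 4.55 in CTNNB1KO with phenobarbital, 4.35 to 4.47 in CTNNB1KO controls, 3.99 to 4.18 in WT with phenobarbital and 4.01 to 4.18 in WT controls. These ranges overlapped under phenobarbital. Of the 7, miR-31 and miR-31* differed most. miR-31 averaged 7.30 with phenobarbital and 7.11 in controls in CTNNB1KO, against 6.39 and 6.24 in WT. All 7 were higher in CTNNB1KO averaged over treatments, but with a median difference of only 0.07. The CTNNB1KO arrays were thus lower in the erythroid list and higher in the leukocyte list, with the erythroid ranges meeting at 7.46 under phenobarbital and the leukocyte ranges overlapping in controls. For 5 stellate or mesenchymal miRNAs, 4 above the floor, it was 4.53 to 5.14 in CTNNB1KO with phenobarbital, 4.46 to 5.17 in CTNNB1KO controls, 4.41 to 4.62 in WT with phenobarbital and 4.41 to 4.66 in WT controls. The endothelial pair miR-126-3p and miR-126-5p overlapped between all groups, with a range of 7.30 to 7.59 in CTNNB1KO with phenobarbital, 7.09 to 7.47 in CTNNB1KO controls, 7.34 to 7.47 in WT with phenobarbital and 7.28 to 7.39 in WT controls. CTNNB1KO control replicate 2, the array with the lowest miR-103 and miR-107, had the lowest hepatocyte (11.71), endothelial (7.09) and erythroid (6.28) means of all arrays. Its stellate or mesenchymal mean (5.17) was the highest of all, and its leukocyte mean (5.48) was the highest among the controls. The part of hepatocytes or of these other cells in the genotype differences of miR-103, miR-107, miR-26a and miR-26b was not tested.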

How the data were processed

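The members and lists were chosen with earlier results of these data known. Groups and replicate numbers came from the sample titles. The deposited log2 values come from Agilent miRNA labelling of total RNA, per the labels' protocols. RMA and limma are named in the submitters' processing notes, with versions and settings not given in the sources read for this work. miR-122 read the same 15.28 on all 4 WT controls and on 1 CTNNB1KO phenobarbital array. Scanner intensities and slides were not analysed here, and the number of arrays limits the precision.

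For all 611 mouse miRNAs and 16 arrays, group means were estimated with limma 3.58.1 in R 4.3.3 (12 residual degrees of freedom, eBayes with intensity trend). Two-sided p-values were adjusted by Benjamini-Hochberg over the 611, with a threshold of 0.05, in 7 comparisons, among them the means over both treatments and over both genotypes. On simulated data for genotype averaged over treatments, with 611 features, limma found 16 of 20 changes of 0.25, 20 of 20 of 0.5 and 20 of 20 of 1, beside 2 false calls. The simulated noise was normal, independent between features and equally wide in all groups, and the most variable features were given no change. Most features lay under the floor. These counts therefore do not give the power for the 7 members. Correlations used 100000 permutations within groups. Alternatives were scaling, filters, weights, moderation, a replicate block and leaving out arrays. Named miRNAs were all members, the 3 profiles most like each, list members that passed (up to 4 per list and comparison) and miR-148b, miR-152, miR-16, miR-22* and miR-378*.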

Additional observations from a re-analysis of the deposited data

Results flagged for a closer look

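In 48 groups of 4 arrays checked (the 7 members and 5 relatives), 4 held an array far from the other 3, where chance flags about 1 in 20. miR-107 stood at 7.66 in CTNNB1KO control replicate 2, against 8.23 to 8.28 in the others. miR-378* stood at 3.75 on the same array, against 4.33 to 4.40, below the floor of 3.98. miR-378 stood at 5.16 in CTNNB1KO phenobarbital replicate 3, against 5.75 to 5.83. miR-26b stood at 9.75 in CTNNB1KO phenobarbital replicate 4, against 9.86 to 9.88. All 4 were CTNNB1KO arrays.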

How the results depend on the processing

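Of 49 member differences (7 members, 7 comparisons), 41 kept their side of the threshold under every alternative. None that passed changed sign. The genotype differences of miR-103, miR-107, miR-26a and miR-26b kept their sign under every alternative, while quantile normalization turned that of miR-22 in controls to 0.21. miR-22 kept its sign in 25 of 26 alternatives in controls, 24 of 26 under phenobarbital and 24 of 25 averaged over treatments. The genotype difference of miR-378 under phenobarbital kept its sign in 22 of 26, and that of miR-148a in controls in 25 of 26. Of the members, 1 passed between genotypes averaged over treatments. The number was 0 after quantile normalization and with the replicate block, 3 without the intensity trend or without moderation, 4 among miRNAs above the floor (fewer miRNAs tested), and 0 to 2 with single arrays left out. Under phenobarbital it was 0 with all arrays, 3 above the floor, 1 without the trend or without moderation, and 0 to 2 with single arrays left out. For phenobarbital in WT it was 1 with array weights. The cause was not tested. Without CTNNB1KO control replicate 2 the within-group SD ratio was 1.47, against 2.05.

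Same-numbered arrays of different groups had deviations that correlated between -0.45 and 0.40 (median 0.00), and 3 of 16 arrays correlated best with their own number. No pairing by number was thus visible, but these correlations cannot show whether same-numbered arrays were handled together. Over all mouse miRNAs, the calls under alternatives numbered 21 to 48 for genotype averaged over treatments, against 34; 19 to 49 under phenobarbital, against 23; 3 to 9 in controls, against 5; 12 to 29 for phenobarbital in WT, against 17; 0 to 1 in CTNNB1KO, against 0; 6 to 16 averaged over genotypes, against 11; and 2 to 20 for the interaction, against 7.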
